A study of Homo sapiens with 3 samples.

Results

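HOX genes encode homeodomain transcription factors and lie in 4 clusters, HOXA, HOXB, HOXC and HOXD. On the arrays studied here 27 of them, among 18155 genes with a probe set of their own, were covered by 47 of 49293 probe sets. The genes were chosen as those with a probe set whose only gene symbol in the platform annotation was HOXA, HOXB, HOXC or HOXD followed by a number. HOXB and HOXC were complete, with 10 and 9 genes, HOXD had 7 of the 9 genes listed by RefSeq and HOXA had HOXA2 alone of 11. The other HOX genes were not analysed here, and 2 probe sets shared by neighbouring HOXD genes were left out.

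Within a cluster, HOX genes are numbered from the 3′ end to the 5′ end, and genes of the same number in different clusters are paralogs. Low numbers pattern the hindbrain and high numbers the posterior trunk, limbs and urogenital tract. The MLL methyltransferases, of whose complexes WDR5 is a core subunit, place methyl groups on lysine 4 of histone H3 and are known for keeping HOX genes active in development and in leukaemia. Polycomb proteins hold the same genes silent.

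UM-UC-3, an established human bladder cancer cell line, received either a negative control siRNA or 1 of a pair of WDR5 siRNAs, si-WDR5-2 and si-WDR5-3, at 75 nM with Lipofectamine RNAimax. RNA taken at 48 h was hybridised to Affymetrix PrimeView arrays, 1 for each condition and 3 in all. The knockdown was transient, the labels give no other alteration of the line, and the control cells also received an siRNA and the lipid. No condition was replicated. The differences between single arrays therefore have no replicate check and were not tested, and limma was run only as an alternative that takes both WDR5 siRNA arrays as 1 group.

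The siRNA sequences are shown because they are what the labels give as the difference between the arrays. They are given 5′ to 3′ as labelled, with the TT overhang in capitals.
control siRNA: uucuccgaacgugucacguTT
si-WDR5-2: gcucagaggauaaccuuguTT
si-WDR5-3: cccaguccaaccuuauuguTT
The labels place the target of si-WDR5-2 at position 999 of the WDR5 coding sequence and that of si-WDR5-3 at position 585. Each WDR5 siRNA has 9 G or C among its 19 paired bases, and the control siRNA has 10.

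As the check of the knockdown, the median of the 2 WDR5 probe sets was 979 on the control array, 211 after si-WDR5-2 and 311 after si-WDR5-3, or 0.215 and 0.317 times the control. Median intensities of the 3 arrays lay between 149.9 and 151, and no value was below 45.5. Luminal urothelial markers were at or near this dim range. GATA3, PPARG, FOXA1, KRT20, UPK2 and GRHL3 had no probe set past the brightness line described next, and the 4 that passed lay between 155 and 235. Of 7 epithelial markers 4 had a probe set past it (KRT7, KRT8, KRT18 and CLDN4) and 3 had none (CDH1, EPCAM and KRT19), and of 6 mesenchymal markers 5 had one and ZEB2 had none. With si-WDR5-2, 17 of 18 interferon-induced genes past the line were at least 1.5 times the control, with a median log2 ratio of 1.84, and 11 of 16 proliferation genes were at most 0.667 times. With si-WDR5-3, 11 of the 18 interferon-induced genes and 1 of the 16 proliferation genes were at most 0.667 times the control, with medians of -0.70 and -0.21 (log2). Over all genes past the line, 5.00% were higher and 3.35% lower after si-WDR5-2, and 2.34% and 1.57% after si-WDR5-3. CXCL10, at 98.1 after control siRNA and 90.1 after si-WDR5-3, passed the line only through its si-WDR5-2 value of 780. Both lists were chosen from earlier results on these arrays, so their direction is no independent evidence, and their part in the HOX values was not tested.

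To set dim HOX probe sets apart, probe sets were split by brightness. The line was 152, the median over all probe sets of the mean log2 intensity of the 3 arrays. Of the 47 HOX probe sets 25 lay past it, and these covered 19 of the 27 genes. Over the whole series 24647 of 49293 probe sets and 11501 of 18155 genes passed, so these counts do not set HOX genes apart. All 10 HOXB genes were among them, with 5 of 9 HOXC genes and 4 of the 7 HOXD genes. All 11 covered genes of paralog groups 4 to 8 passed, against 3 of 5 in groups 1 to 3 and 5 of 11 in groups 9 to 13. The groups are small, and no pattern was tested. Probe sets differ in their response, so this split describes the probe sets and not an order of mRNA levels. Passing the line does not show expression, since some markers of cell types that a pure line should lack also passed. Of 4 leukocyte markers 1 passed, CD3E at 158 to 176. Of 5 endothelial and muscle markers 2 passed, PECAM1 at 274 to 287 and DES at 521 to 561. Many HOX probe sets past the line lay in the same range. HOXB6 passed through the WDR5 siRNA arrays, mainly that of si-WDR5-2 (184), since its control value lay below the line.

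The other 8 genes, HOXA2, HOXC9, HOXC10, HOXC11, HOXC12, HOXD1, HOXD12 and HOXD13, had 11 probe sets with intensities between 54.8 and 127. HOXA2 acts in the hindbrain and the outer ear, HOXD1 is an anterior gene, and HOXD13 shapes the digits. Over the 22 dim HOX probe sets, including those of genes that also had a brighter one, the ratio to control ran from 0.824 to 1.08 after si-WDR5-2 and from 0.860 to 1.11 after si-WDR5-3. Near the floor of the arrays a ratio is drawn towards 1, so these values set no limit on how far the mRNA differed. HOXB-AS3, the only HOX antisense transcript with a probe set of its own in the annotation used, was as dim, between 91.3 and 97.4.

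**Figure D1:**
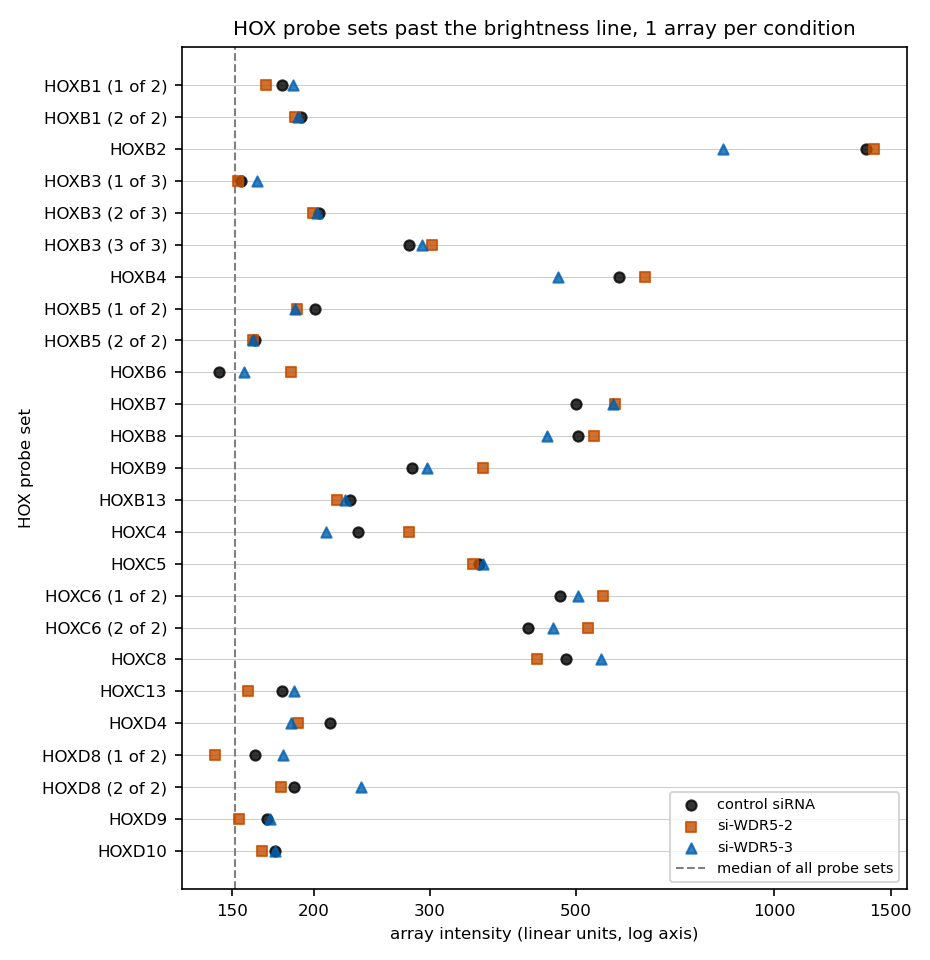
Array intensity (log axis) of the 25 HOX probe sets past the brightness line, 1 row each, with 1 marker for each of the 3 arrays and the line at 152 dashed. The 3 markers of most probe sets lie close together, and HOXB2 shows the si-WDR5-3 array at 835 apart from 1377 and 1414.

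The value of a gene was taken as the median log2 ratio to the control array over its probe sets past the line. A gene was counted as higher at 1.5 times the control or more and as lower at 0.667 times or less, a size rule and not a test. With si-WDR5-2 no HOX gene of 19 was higher and none was lower, while 5.00% of all 11501 genes past the line were higher and 3.35% lower (8.35% in either direction). With si-WDR5-3 no HOX gene was higher against 2.34% of all genes, and 1 HOX gene, HOXB2, was lower against 1.57% (3.91% in either direction). Read against these shares, the counts do not set HOX genes apart.

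The HOX genes were centred like the rest of the array. Their median ratio was 0.980 after si-WDR5-2 and 1.01 after si-WDR5-3, where all genes had 0.985 and 0.999. The SD of the log2 ratio over the 19 genes was 0.18 after si-WDR5-2 and 0.22 after si-WDR5-3 (0.14 without HOXB2), and over all genes it was 0.35 and 0.26. These SDs are not at like brightness. A filter at the 75th percentile kept 7 of the 19 HOX genes and left 6594 genes in place of 11501. Over all genes the share higher after si-WDR5-2 was 7.57% there, against 5.00%. A narrower HOX spread is therefore not read as a trait of HOX genes. The whole HOX range after si-WDR5-2 was 0.885 to 1.28 times the control. With si-WDR5-3 it was 0.606 to 1.18 times, and 0.808 to 1.18 times without HOXB2. Both comparisons use the same control array.

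**Figure D2:**
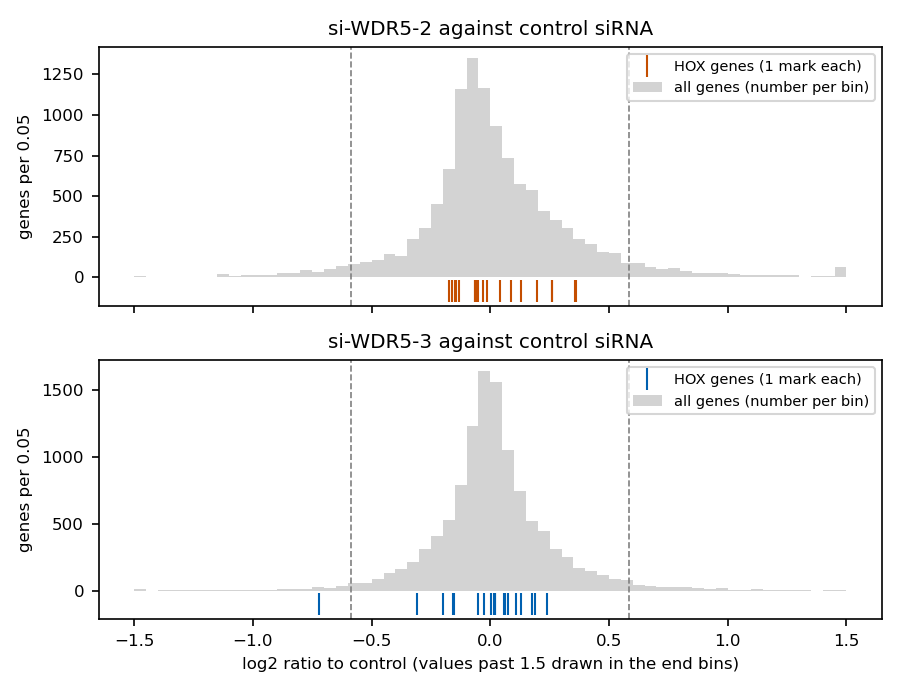
Number of genes (grey bars, bins of 0.05) by log2 ratio to control for all 11501 genes past the brightness line, with 1 coloured mark for each of 19 HOX genes and dashed lines at 1.5 and 0.667 times. All HOX marks lie inside the dashed lines after si-WDR5-2, and HOXB2 alone lies outside them after si-WDR5-3.

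HOXB2, which patterns the hindbrain, gave the largest difference of any HOX gene. Its 1 probe set had an intensity of 1377 after control siRNA, 1414 after si-WDR5-2 and 835 after si-WDR5-3. The array of si-WDR5-3 was therefore the low one, at 0.606 times the control and 0.590 times si-WDR5-2, and the other 2 arrays differed by a ratio of 1.03. Of all 11501 genes 96 (0.835%) were as low or lower after si-WDR5-3. Between the 2 WDR5 siRNAs, without the control array, HOXB2 was the only HOX gene past the size rule, lower after si-WDR5-3. Of all genes 3.53% were lower there, 3.08% were higher and 6.61% were either. The WDR5 mRNA was at 0.215 times the control after si-WDR5-2 and 0.317 times after si-WDR5-3, and how HOXB2 relates to it was not tested. With 1 probe set on 1 array per condition, no further value bears on the HOXB2 difference.

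The neighbours of HOXB2 lay closer to the control. HOXB1, next to it at the 3′ end and a gene of rhombomere identity, was at 0.961 times after si-WDR5-2 and 1.01 times after si-WDR5-3. HOXB3, on its other side, was at 0.990 and 1.05 times over 3 probe sets, and its RefSeq gene span includes HOXB4. HOXB4, a factor known for the expansion of blood stem cells, followed the order of HOXB2 with a smaller difference. Its brighter probe set had intensities of 581 after control siRNA, 635 after si-WDR5-2 and 470 after si-WDR5-3, or 1.09 and 0.808 times. The dimmer one, below the line, was at 1.01 and 0.860 times.

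HOXB5 to HOXB9 pattern the neck and trunk. HOXB6 had intensities of 144 after control siRNA, 184 after si-WDR5-2 and 157 after si-WDR5-3, and HOXB9 had 282, 361 and 297. In both the si-WDR5-2 array was the high one, at 1.28 times the control, the highest ratio of any HOX gene there. At or above that ratio after si-WDR5-2 were 11.6% and 11.7% of all genes. HOXB6 passed the brightness line mainly through its high si-WDR5-2 value, so its rank on that array is not independent of the filter. HOXB7, often raised in carcinomas, was at 1.15 and 1.14 times after si-WDR5-2 and si-WDR5-3, HOXB8 at 1.06 and 0.899 times and HOXB5 at 0.966 and 0.964 times. HOXB13, a partner of the androgen receptor in the prostate, was at 0.955 and 0.982 times. The genes from HOXB3 to HOXB13 thus all stayed within the size rule.

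**Figure D3:**
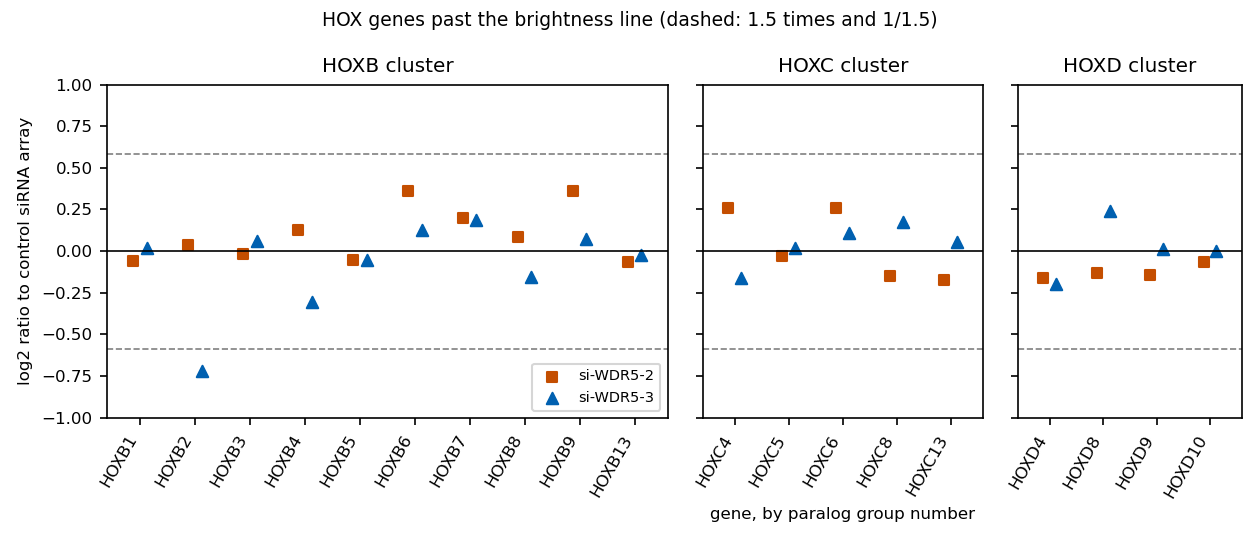
Log2 ratio to the control array of the 19 HOX genes past the brightness line, by cluster and paralog number, for si-WDR5-2 (squares) and si-WDR5-3 (triangles), with dashed lines at 1.5 and 0.667 times. HOXB2 after si-WDR5-3 is the only point past a dashed line, and HOXB6 and HOXB9 are the highest after si-WDR5-2.

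In the HOXC cluster, HOXC4, HOXC5 and HOXC6 overlap in the RefSeq annotation, and probe sets may share transcripts. HOXC4 had intensities of 233 after control siRNA, 279 after si-WDR5-2 and 209 after si-WDR5-3, so that the WDR5 siRNAs lay on either side of the control at 1.20 and 0.896 times. HOXC5 had 356, 349 and 360, or 0.980 and 1.01 times. HOXC4 and HOXC5, with the same annotated start, thus gave different ratios, by less than the size rule. HOXC6, which is active in mammary and prostate tissue, had 2 probe sets past the line, at 1.16 and 1.23 times after si-WDR5-2 and 1.07 and 1.09 times after si-WDR5-3. HOXC8, a trunk gene, had a brighter probe set at 483, 436 and 545 on the 3 arrays, or 0.903 and 1.13 times, the reverse order of HOXC4. Its dimmer probe set, below the line, was at 1.08 and 1.11 times and did not give that order. HOXC13, a regulator of hair keratins, was at 0.885 and 1.04 times.

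The 4 HOXD genes past the line were all below the control after si-WDR5-2, between 0.894 and 0.955 times. Of all 11501 genes 6257 were below the control there, so no trait of the cluster is read from this. All genes had a median of 0.985 there, and 20.7% of all genes were as low as HOXD4 or lower, the lowest of the 4. HOXD8 gave the highest HOX ratio after si-WDR5-3, 1.18 times, where 12.7% of all genes were as high or higher. Its 2 probe sets had 163 and 186 after control siRNA, 141 and 178 after si-WDR5-2, and 180 and 236 after si-WDR5-3. The array of si-WDR5-3 was thus the highest for both, although both probe sets carry suffixes (s and x) that mark possible matches to other transcripts. HOXD4, a paralog of HOXB4 and HOXC4, was at 0.894 and 0.872 times. The 2 shared probe sets that were left out were both dimmer than the line. The one shared by HOXD3 and HOXD4 was at 1.28 and 0.948 times, above the control after si-WDR5-2. The one shared by HOXD10 and HOXD11 was at 0.982 and 0.997 times. HOXD9 and HOXD10, which act in the limb, were at 0.905 and 1.01 times and at 0.955 and 1.00 times.

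Promoter sequence was available for 10 of the 27 genes in RefSeq (GRCh38.p14). The 250 bases before the start are printed for HOXC4, which has the same start as HOXC5, and for HOXD8, the gene with the highest ratio after si-WDR5-3. The capitals mark CG, the dinucleotide that the CXXC domain of MLL1 binds when unmethylated.
HOXC4 and HOXC5, chr12:54016638-54016887, plus strand: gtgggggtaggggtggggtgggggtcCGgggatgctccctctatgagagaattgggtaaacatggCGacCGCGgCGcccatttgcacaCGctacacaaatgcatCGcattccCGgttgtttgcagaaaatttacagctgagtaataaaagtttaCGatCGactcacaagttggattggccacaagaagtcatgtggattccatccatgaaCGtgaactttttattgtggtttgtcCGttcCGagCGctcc
HOXD8, chr2:176129455-176129704, plus strand: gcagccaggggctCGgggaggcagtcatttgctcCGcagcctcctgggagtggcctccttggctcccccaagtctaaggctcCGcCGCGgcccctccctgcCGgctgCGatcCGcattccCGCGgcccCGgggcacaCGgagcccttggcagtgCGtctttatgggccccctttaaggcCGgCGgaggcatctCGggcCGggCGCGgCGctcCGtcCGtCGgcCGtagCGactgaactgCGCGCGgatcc
HOXC4 and HOXC5 have 14 CG in this window and HOXD8 has 28, while the median over all 35116 RefSeq windows of the same length is 11. The 10 HOX windows hold between 4 (HOXD4) and 31 (HOXD1), with a median of 15. The letters CCAAT, read on both strands, are in 9 of the 10 windows (the exception is HOXD8) and in 32.0% of all windows, TATAAA in 1 (HOXD13) and 10.7%, and GGGCGG in 3 and 42.6%. HOXC4 and HOXC5 share their window and are counted once each. HOXB2 had no entry, so the gene with the largest difference is not among them.

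Genes that act with HOX proteins or on their clusters were listed with earlier results of these data known. Their counts stand beside the shares over all genes, 5.00% higher and 3.35% lower after si-WDR5-2, and 2.34% higher and 1.57% lower after si-WDR5-3, and nothing particular to a list is read from them. Among 8 TALE homeodomain factors past the line, the DNA-binding cofactors of HOX proteins and their relatives, PBX2 was higher after si-WDR5-2 at 1.66 times (1.11 after si-WDR5-3), and none met the rule after si-WDR5-3. PBX3 was at 0.691 and 1.19 times, and MEIS1 had no probe set past the line. Of 23 Polycomb and H3K27 demethylase genes, 1 was higher and 2 were lower after si-WDR5-2 and none met the rule after si-WDR5-3. JARID2, a subunit of PRC2, was higher after si-WDR5-2 at 1.95 times (1.36 after si-WDR5-3), as the median of 3 probe sets. The paper's list of genes upregulated with both siRNAs includes JARID2. PCGF6 and PHC3, both of PRC1 complexes, were lower after si-WDR5-2 at 0.490 and 0.660 times (1.09 and 0.952 after si-WDR5-3). EZH2, the methyltransferase of PRC2, was at 0.750 and 0.761 times. The median log2 ratios were 0.00 and 0.11 for the TALE factors and 0.02 and 0.05 for the Polycomb list, where all genes had -0.02 and 0.00.

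Of 13 genes of the MLL/SET1 complexes and their partners, WDR5 was lower with both siRNAs and PSIP1, a tether of MLL1 to chromatin, after si-WDR5-2 alone at 0.633 times (1.04 after si-WDR5-3). KMT2A, which encodes MLL1, was at 0.936 and 1.04 times. Retinoic acid turns on HOX genes in the embryo. Of 8 genes of its pathway past the line none met the rule after si-WDR5-2 and 2 were higher after si-WDR5-3, DHRS3 at 1.63 times and ALDH1A1 at 1.52 times (1.36 and 1.20 after si-WDR5-2). The median log2 ratio of these 8 was -0.0013 after si-WDR5-2 and 0.20 after si-WDR5-3. Of 13 protein-coding genes near the clusters, 1 was higher and 2 were lower after si-WDR5-2 and none met the rule after si-WDR5-3. ATF2 was higher after si-WDR5-2 at 1.57 times (1.26 after si-WDR5-3). CBX5 and AGPS were lower there at 0.632 and 0.576 times (1.02 and 0.974 after si-WDR5-3). Of 8 further homeobox genes MNX1 was higher after si-WDR5-3 at 1.63 times (1.06 after si-WDR5-2). The values of PCGF6, PHC3, ATF2, DHRS3, ALDH1A1 and MNX1 each rest on 1 probe set past the line, as that of HOXB2 does.

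**Figure D4:**
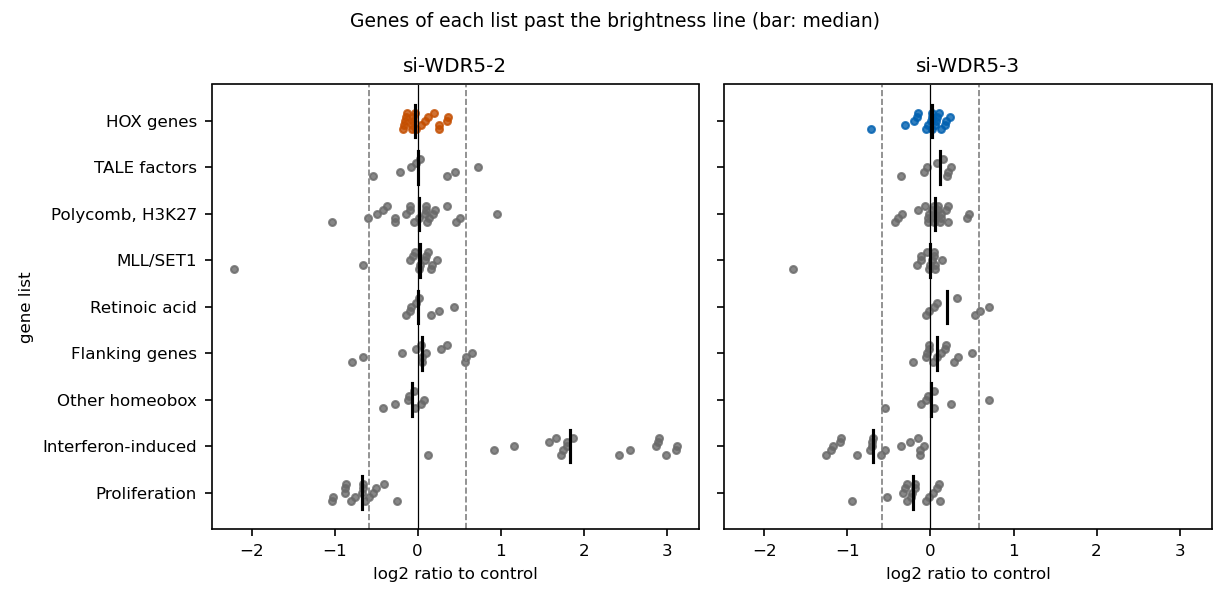
Log2 ratio to control of every gene past the brightness line in the HOX family (coloured) and 8 gene lists (grey), with the median as a bar and dashed lines at 1.5 and 0.667 times. The HOX points lie inside the dashed lines except HOXB2 after si-WDR5-3, while the interferon-induced genes have medians of 1.84 after si-WDR5-2 and -0.70 after si-WDR5-3.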

How the data were processed

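Total RNA of 3 transfected UM-UC-3 cultures was measured on PrimeView arrays. The authors processed the scans in GCOS 1.4, and the deposited values are linear intensities of 49293 probe sets. How background was corrected and how probes were summarised and normalized is not stated in the sources used, and detection calls were not used here. Array medians were nearly equal, so no scaling was added. Log2 ratios to the control array were taken without an offset (Python 3.11.15, pandas 2.3.3). Genes were named from the platform annotation, in which 45064 probe sets have 1 symbol, 1756 several and 2473 none. Probe sets past the line numbered 24647. Gene values are medians over the kept probe sets, whose spread measures probes and not cells. The number of arrays limits the precision.

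The members, lists and size rule were chosen with earlier results of these data known. All HOX genes past the line are named. Of the other lists, members that met the size rule are named with a few more. The code was tested on simulated data. The alternatives were median centring, quantile normalization, other filters, an offset of 84.8, the brightest probe set, plain _at probe sets, folds of 1.3 and 2, a rule on single probe sets and limma 3.58.1 (R 4.3.3), with both WDR5 siRNA arrays as 1 group and 1 residual degree of freedom. Promoter sequences and gene order come from RefSeq (GRCh38.p14). The array table names no build.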

Additional observations from a re-analysis of the deposited data

Results flagged for a closer look

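HOXB2 was above the control after si-WDR5-2, at 1.03 times, and below it after si-WDR5-3, at 0.606 times. Its ratio between them (si-WDR5-3 over si-WDR5-2) was 0.590. It drew attention because these values lie more than 1.5 times apart. The difference was not tested, because there is 1 array per siRNA. It rests on 1 probe set, and the value of 1.03 is close to the control.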

How the results depend on the processing

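No HOX gene met the size rule after si-WDR5-2, or with both siRNAs, under any scaling, filter, offset or probe set choice tried or at a fold of 1.3. HOXB2 was the only HOX gene lower after si-WDR5-3 under each of these. It has 1 probe set, so several of these choices return the same value. At a fold of 2 the count of HOX genes lower after si-WDR5-3 was 0. Of all genes at a fold of 1.5, 2.53% (no filter) to 7.57% (75th percentile) were higher after si-WDR5-2, and 1.56% to 5.17% lower. At a fold of 1.3 these shares were 10.9% and 7.33%. After si-WDR5-3 0.722% to 2.62% of all genes were lower, 4.88% at a fold of 1.3 and 0.313% at 2. Nothing particular to HOX genes is read from these counts. With the filter at the 75th percentile, which left 7 HOX genes, the median log2 ratio after si-WDR5-2 was 0.085 in place of -0.03. A rule on single probe sets (1.5 times with each siRNA and 2 times with 1 of them) counted 0 HOX genes. With a limit of 0.05, limma called 0 of 19 HOX genes by adjusted and 0 by unadjusted p, and 0 and 535 of all 11501 genes. For WDR5 limma gave an unadjusted p of 0.00293 and an adjusted p of 0.997, and for HOXB2 0.425 and 0.997. No gene passed the adjusted limit, so the adjusted count says nothing on the stability of the HOX values. Of 276 recomputed values of single genes (HOX genes and WDR5) 265 stayed within the spread between probe sets. The other 11 moved further, some of them values of WDR5, and among HOX genes such as HOXD8 after si-WDR5-3, at 1.26 times for its brightest probe set. Most HOX genes past the line have 1 kept probe set. They have no such spread of their own, and many probe set and filter choices leave their value the same. The count of 265 is therefore no measure of stability. No paired analysis was possible because each condition has 1 array, and for the same reason no replicate could be left out.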
